A study of Mus musculus with 15 samples.

Results

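Genes known from endothelial cells, the cells that line blood vessels, were followed in RNA-seq of gonocytes sorted from mouse testes at E16.5. The set held 10 genes of the 54838 in the count tables. Kdr, Flt1, Tek, Cdh5, Pecam1, Emcn and Plvap, 7 in number, were chosen as markers of the lineage, and Cd93, Thbd and Ldb2, 3 in number, were selected on their measured values, because their counts were higher in the Tex15-/- libraries. The differences of these 3 genes between the genotypes are therefore described without a test. All 10 were chosen with earlier results of these data known. Cd93 and Ldb2 passed the filter on low counts only through the Tex15-/- libraries, Emcn did not pass it, and 9 members entered the fit across all genes.

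Gonocytes are the foetal male germ cells. The 3 control libraries came from Tex15+/-; Miwi2 tdTom/+ animals and the 3 others from Tex15-/-; Miwi2 tdTom/+ animals, all at E16.5 and on a mixed B6CBAF1/Crl; C57BL/6N background. Control and mutant cells thus both carried the tdTomato reporter in 1 copy of Miwi2, a germ cell gene whose reporter was the mark used to sort, and the controls were heterozygous for the Tex15 null allele, which was made by CRISPR/Cas9 in a line from 1 founder. The RNA was total RNA depleted of rRNA. Neither the number of animals behind a library nor their litters were stated, so p-values measure the spread between these libraries, which may be technical. Small RNA came from separate libraries of whole E16.5 testes, 3 from Tex15+/- and 3 from Tex15-/- animals on the same background, with 6 testes in each library.

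Endothelial cells receive vascular endothelial growth factors (VEGF) through the receptor tyrosine kinases KDR (VEGFR2) and FLT1 (VEGFR1) and angiopoietins through TEK (TIE2). They join each other through VE-cadherin (Cdh5) and PECAM1, carry the sialomucin endomucin (Emcn) and, in fenestrated vessels, the diaphragm protein PLVAP. CD93 and thrombomodulin (Thbd) are surface proteins of endothelium that are also known from monocytes and other myeloid cells, and PECAM1 is also known from early germ cells. LDB2 is an adaptor that bridges LIM domain transcription factors. Transcription factors of the ETS family, which bind a GGAA core, are known regulators of many endothelial genes. The foetal testis is vascularised by endothelial cells that migrate in from the neighbouring mesonephros, and vessels run in the interstitium, outside the cords that hold the germ cells.

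Promoters of the VEGF receptors and an endothelial microRNA are shown because the readouts below set them side by side. The promoter table used (RefSeq, GRCm38.p6) matched 4 of the 10 members, Kdr, Flt1, Tek and Emcn. The 250 bases before the start of Kdr (chr5:75978456-75978705, minus strand) and Flt1 (chr5:147726012-147726261, minus strand) are given because both genes encode VEGF receptors and differed widely in their readouts below. They run 5′ to 3′ along the gene, and capitals mark the core GGAA on either strand, which reads TTCC where it lies on the other strand.
Kdr: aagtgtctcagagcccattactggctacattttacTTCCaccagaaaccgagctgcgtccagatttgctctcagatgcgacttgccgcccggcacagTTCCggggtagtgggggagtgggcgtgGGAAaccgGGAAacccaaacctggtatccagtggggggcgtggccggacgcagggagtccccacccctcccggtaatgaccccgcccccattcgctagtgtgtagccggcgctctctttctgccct
Flt1: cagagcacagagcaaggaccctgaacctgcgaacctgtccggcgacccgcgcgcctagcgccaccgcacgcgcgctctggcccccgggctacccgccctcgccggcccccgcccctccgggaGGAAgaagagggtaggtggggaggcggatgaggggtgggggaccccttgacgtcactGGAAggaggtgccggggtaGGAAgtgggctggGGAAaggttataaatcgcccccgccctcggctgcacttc
Both windows held 4 matches, as did that of Emcn, and that of Tek held 2. Of 32851 promoter windows of the same length, 93.4% held at least 1 match, the median was 3, and 33.4% held 4 or more. None of the 4 windows held GATAA, the core read by GATA factors, on either strand, and 22.6% of all windows did. A match of letters is a description and not a bound site. The microRNA miR-126a-3p, known from endothelium, is encoded at chr2:26591402-26591423 on the plus strand (GRCm38.p6), within the bounds of the endothelial gene Egfl7 and of Gm20532, and is given with its seed, bases 2 to 8, in capitals.
miR-126a-3p: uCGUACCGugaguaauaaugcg
Of 1738 mature mouse miRNAs in the RefSeq table, only miR-126a-3p itself had this seed.

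The gonocyte libraries held from 4893265 to 5697020 reads on genes. Tex15, the targeted gene, had from 8183 to 9082 reads in the controls and from 1267 to 2338 in the Tex15-/- libraries. The summed level of 10 germ cell markers was between 4130 and 4387 CPM (counts per 1000000 reads on genes, scaled by TMM factors) in the controls and between 4110 and 4248 CPM in the Tex15-/- libraries. Tex15-/- library 2 stood apart. Its counts differed from those of the other Tex15-/- libraries by a chi-square per degree of freedom of 13.6 and 16.7, against 3.04 to 5.60 for all other pairs within a genotype, so the log2 ratios of the members and the sums are also given without it.

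Among the receptors, Kdr had 18, 11 and 11 reads in control libraries 1, 2 and 3 and 5, 231 and 35 reads in Tex15-/- libraries 1, 2 and 3. Library 2 stood far above all others, library 3 was above the controls and library 1 below them, so the groups overlapped. The mean level was 2.48 ± 0.697 CPM in the controls and 16.4 ± 22.0 CPM in Tex15-/- (SD, n = 3 each). The log2 ratio of Tex15-/- to control was 2.71 with a standard error of 0.95 and an adjusted p of 0.470 (edgeR's quasi-likelihood test, adjusted over all genes tested). Without Tex15-/- library 2 it was 0.62, with an adjusted p of 0.967, and without Tex15-/- library 1 it was 3.28, with an adjusted p of 0.00544 in the same test. The fit without Tex15-/- library 1 gave 388 of 17520 genes tested an adjusted p under 0.01, against 0 of 16311 with all libraries. Flt1, which binds VEGF-A as a high-affinity receptor with weak kinase activity, had 153, 150 and 126 reads in the controls and 144, 268 and 140 in Tex15-/-. Only library 2 lay outside the control range. The log2 ratio was 0.36 with a standard error of 0.23 and an adjusted p of 0.636, and 0.04 without library 2. Tek had 60, 90 and 83 reads in the controls and 68, 158 and 98 in Tex15-/-, with a log2 ratio of 0.46, a standard error of 0.30 and an adjusted p of 0.631. Without library 2 the value was 0.14. The 2 VEGF receptors with equal counts of ETS cores read 16.7 times (Kdr) and 1.80 times (Flt1) their control mean CPM in library 2. Ratios depend on the control mean, which was 2.48 CPM for Kdr and 26.8 CPM for Flt1. In library 2 Kdr lay 39.1 CPM and Flt1 21.4 CPM above that mean. These are values within 1 library, and neither they nor a relation to the cores was tested.

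Both junction genes were high in library 2 and below every control in libraries 1 and 3. Of all 16311 genes tested, 3947 were below every control in library 1 and 4958 in library 3. Cdh5, whose product holds endothelial cells together at adherens junctions, had 108, 115 and 123 reads in the controls and 80, 488 and 88 in Tex15-/-. Its mean was 21.6 ± 1.65 CPM in the controls and 40.1 ± 41.4 CPM in Tex15-/- (SD, n = 3 each), and its log2 ratio was 0.90 with a standard error of 0.54 and an adjusted p of 0.616. Without library 2 the sign turned, to -0.41, with an adjusted p of 0.886. Pecam1 had 108, 64 and 80 reads in the controls and 53, 198 and 56 in Tex15-/-. Its log2 ratio of 0.28 (standard error 0.43, adjusted p 0.847) also turned, to -0.57 without library 2, with an adjusted p of 0.873. An antisense gene, Gm29682, overlaps Cdh5 and had at most 4 reads in any library.

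Emcn was among the lowest members, with 8, 3 and 6 reads in the controls and 7, 38 and 13 in Tex15-/-. Libraries 2 and 3 were above the controls and library 1 was among them. It was too low for the fit, and its mean was 1.05 ± 0.434 CPM in the controls and 3.56 ± 2.89 CPM in Tex15-/- (SD, n = 3 each). Plvap was the only lineage marker whose groups did not overlap. It had 70, 51 and 80 reads in the controls and 83, 104 and 86 in Tex15-/-, and 12.4 ± 2.21 CPM against 17.1 ± 1.39 CPM. Across all genes tested, 6.53% had groups that did not overlap with Tex15-/- higher and 6.63% with Tex15-/- lower. Plvap, 1 of the 6 lineage markers in the fit, is read against the former share. The log2 ratio of Plvap was 0.46 with a standard error of 0.23 and an adjusted p of 0.573, and it was 0.39 without library 2. Gtpbp3, which lies on the opposite strand and overlaps Plvap, had at most 40 reads in a library, and whether reads were counted by strand was not stated.

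**Figure D1:**
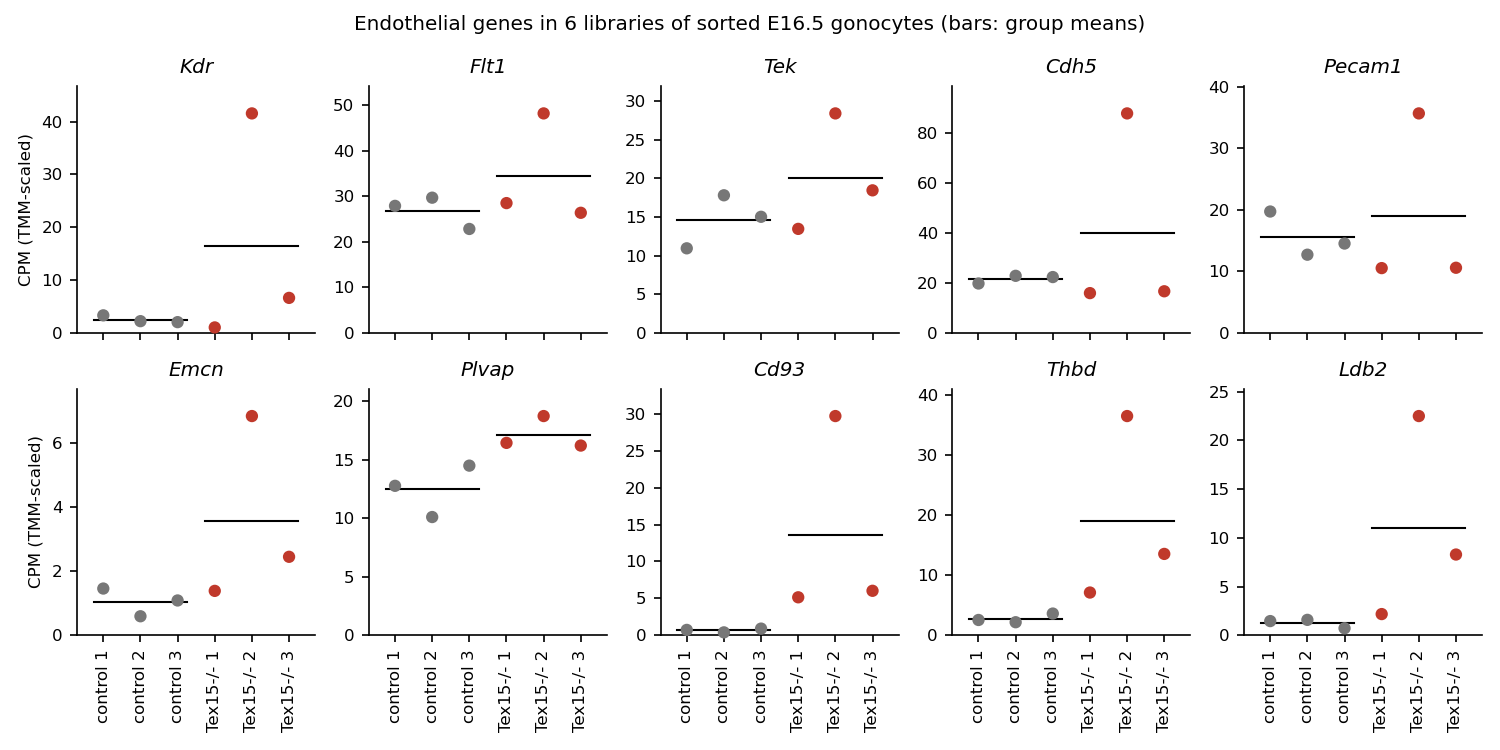
Level of each of the 10 genes (y axis, CPM scaled by TMM factors, linear from 0) in each gonocyte library (x axis). Grey points are controls, red points are Tex15-/- libraries and bars are group means. Tex15-/- library 2 is the highest point in all 10 panels, and in Plvap, Cd93, Thbd and Ldb2 all red points lie above all grey ones.

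Of the 3 genes selected on their counts, Cd93 and Ldb2 had at most 8 reads in any control, and Thbd had more. Cd93 had 4, 2 and 5 reads in the controls and 26, 165 and 32 in Tex15-/-. Library 2 was the highest and libraries 1 and 3 were close to each other. Thbd, whose product turns thrombin towards activating protein C, had 14, 11 and 20 reads in the controls and 36, 203 and 72 in Tex15-/-. Library 2 was again the highest, and library 1 was the lowest of the Tex15-/- libraries. Ldb2 had 8, 8 and 4 reads in the controls and 11, 125 and 44 in Tex15-/-. Library 1 lay just above the controls for this gene. The log2 ratios were 4.27 for Cd93, 2.76 for Thbd and 3.12 for Ldb2, and without library 2 they were 2.99, 1.89 and 2.05. Their non-overlapping groups follow from how they were selected. Several short unnamed transcripts overlap Ldb2, of which Gm43507, on the opposite strand, had up to 19 reads. Ldb2 lay just inside this selection, with 1.73 times its control mean CPM in library 1. Emcn and Plvap, chosen as lineage markers but with earlier results of these data known, had 1.32 times theirs in the same library.

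Cd93 and Thbd are neighbours on chromosome 2, both on the minus strand, with 28451 bases between them (GENCODE vM21, GRCm38). Within 500 kb of the start of Cd93 lie 15 other protein-coding genes, Thbd among them. Of the others, 5 entered the fit. Nxt1, Gzf1, Napb and Cst3 had log2 ratios of 0.09, -0.10, -0.04 and 0.03, and Cst12, a cystatin gene that reached the filter only with the Tex15-/- libraries, had 1.42, given without a test. Sstr4, a somatostatin receptor gene, had 1, 1 and 2 reads in the controls and 1, 10 and 2 in Tex15-/-. Cst9, too low for the fit, had 1, 3 and 1 reads in the controls and 3, 45 and 29 in Tex15-/-. Of the rest too low for the fit, Foxa2 and Cst8 were also highest in library 2 and Cst11 in library 3. Cstl1, 9230104L09Rik and 8030411F24Rik were highest in a control library, and Cst13 had no reads.

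Per kilobase of exon, Plvap had the highest control level at 6.27 ± 1.11 CPM per kb, followed by Cdh5 at 5.13 ± 0.393, Tek at 3.10 ± 0.734, Pecam1 at 2.51 ± 0.585 and Flt1 at 1.98 ± 0.264 CPM per kb (SD, n = 3). Thbd followed at 0.748 ± 0.201, Ldb2 at 0.376 ± 0.139, Kdr at 0.275 ± 0.0772, Emcn at 0.193 ± 0.0802 and Cd93 at 0.101 ± 0.0388 CPM per kb. Control libraries of adjacent genes in this order overlapped, except between Cdh5 and Tek, between Flt1 and Thbd and between Thbd and Ldb2. Kdr and Flt1, which share a ligand, thus stood apart in the controls. In Tex15-/- library 2 the order was another one, with Cdh5 highest at 20.9 CPM per kb, Thbd next at 9.82 and Emcn lowest at 1.26. The difference between library 2 and the control mean ranged from 1.07 CPM per kb for Emcn to 15.8 for Cdh5, while the ratio ranged from 1.50 for Plvap to 43.9 for Cd93.

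The Tex15-/- libraries did not behave alike. All 6 lineage markers in the fit were highest in Tex15-/- library 2, as were 29.2% of all genes tested, and so was Emcn, which was too low for the fit. Of the 6 lineage markers that entered the fit, 1 (Plvap) was above every control in library 1, where 23% of all genes tested were, 6 in library 2, where 35.6% were, and 3 in library 3, where 30.5% were. The 3 selected genes were also highest in library 2 and above every control in all Tex15-/- libraries, from which nothing is read because they were selected on these counts. In library 1, Cdh5, Kdr and Pecam1 were below every control, as were 3947 of the 16311 genes tested. Summed over Cdh5, Kdr, Tek, Emcn, Plvap and Flt1, the level was 76.0, 83.2 and 77.7 CPM in the controls and 76.6, 231.7 and 86.7 CPM in Tex15-/-. The ratio of the genotype means was 1.67, and 1.03 without library 2. In bulk RNA, a change in the number of cells of a type and a change in RNA per cell cannot be told apart.

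**Figure D2:**
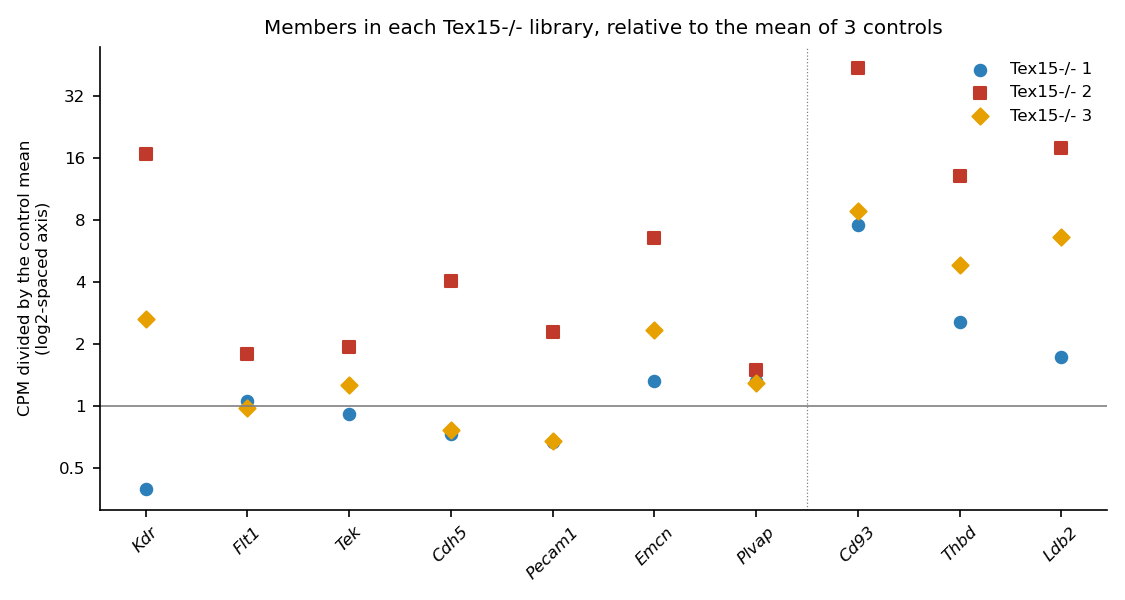
CPM of each gene in each Tex15-/- library divided by the mean of the 3 controls (y axis, log2-spaced), with 1 point shape per library and a dotted line before the 3 genes selected on their counts. Library 2 spans 1.50 (Plvap) to 43.9 (Cd93), and library 1 lies below 1 for Kdr, Tek, Cdh5 and Pecam1 and at 7.60 for Cd93.

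None of the 6 lineage markers in the fit, and none of all 16311 genes tested (0%), passed an adjusted p of 0.01 in edgeR, where 987 genes were higher and 514 lower at an unadjusted p under 0.05. Tex15, the targeted gene, was thus not called in edgeR either, so the lack of a call does not show that a marker was unchanged. DESeq2 called 10 genes higher and 4 lower at the same adjusted threshold. At an unadjusted p under 0.05, Kdr was the only one of the 6 lineage markers in the fit, read against 6.05% of all genes tested that were higher at that p.

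Of a further 67 genes known from endothelial biology, in 8 roles and not all restricted to endothelial cells, 45 entered the fit. None passed the threshold in edgeR, in which the lowest adjusted p was 0.460, or in DESeq2. At an unadjusted p under 0.05, 10 were higher in Tex15-/- and 0 lower, beside the 6.05% of all genes tested that were higher. Their median log2 ratio was 0.48, and 0.11 without library 2, against 0.00 for all genes tested. A gene could pass the filter on low counts through the Tex15-/- libraries alone, as Vegfc, S1pr1 and Jam2 did, which are among the 10. These figures therefore describe the genes that passed and not the whole list. Of the 45, 8 had groups that did not overlap with Tex15-/- higher and 0 with Tex15-/- lower, beside 6.53% and 6.63% of all genes tested, and 29 were highest in library 2, beside 29.2%. Over all 67, with those too low for the fit, the counts were 9, 0 and 45. Vegfc, S1pr1 and Jam2 are also among the 8, so neither the 10 nor the 8 is read as a test.

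Of the 7 VEGF ligands and receptors outside the members, 6 entered the fit. Of these 6, 4 lay above every control in all Tex15-/- libraries, beside 6.53% of all genes tested. They were Vegfa, Vegfc, Pgf and the co-receptor Nrp2, while the groups of Vegfb, Nrp1 and the lymphatic receptor Flt4 overlapped. The like count was 1 of 3 for junctions, 1 of 8 for surface and matrix, 2 of 10 for transcription factors and 0 in the remaining roles. The count of 4, which includes Vegfc, is described and not tested. Vegfa, the main ligand of KDR, had 86, 84 and 87 reads in the controls and 89, 184 and 149 in Tex15-/- (log2 ratio 0.71, adjusted p 0.460). Vegfc, a ligand of the lymphatic receptor FLT4, had 4, 11 and 5 reads in the controls and 23, 20 and 15 in Tex15-/-, with a log2 ratio of 1.52. It passed the filter only through the Tex15-/- libraries, so no test is given. Pgf, a ligand of FLT1, had 14, 21 and 13 reads in the controls and 23, 42 and 36 in Tex15-/-, with a log2 ratio of 1.06. Vegfc was the one of these 3 that library 2 did not lead, and its value without library 2 was 1.53. Vegfb, the highest of the role per kilobase, had 81, 88 and 66 reads in the controls and 77, 166 and 124 in Tex15-/-. Nrp1, a co-receptor of KDR, had 2, 3 and 9 reads in the controls and 5, 249 and 28 in Tex15-/- and was too low for the fit.

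In the other roles, the genes highest per kilobase had log2 ratios of either sign. Angpt2, a ligand of TEK, had 69, 61 and 71 reads in the controls and 72, 35 and 30 in Tex15-/-, with a log2 ratio of -0.52 and an adjusted p of 0.645. It ran against most of the list, with libraries 2 and 3 below every control. Rasip1 (junctions), Mcam (surface), Ldb1 (transcription factors), Ephb4 (ephrin receptors) and Bmpr2 (BMP receptors) had log2 ratios of 0.23, 0.10, 0.17, 0.68 and 0.25, and Procr, the receptor that presents protein C to thrombomodulin, had -0.37. Ephb4 rested on library 2, with 71, 52 and 77 reads in the controls and 56, 206 and 60 in Tex15-/-, and its log2 ratio was -0.15 without that library. Ldb1, the paralog of Ldb2, had 724, 519 and 657 reads in the controls and 640, 752 and 732 in Tex15-/-. S1pr1, a receptor of sphingosine 1-phosphate, had 6, 7 and 4 reads in the controls and 10, 46 and 24 in Tex15-/- (log2 ratio 2.19, and 1.60 without library 2) and, as it passed the filter only through the Tex15-/- libraries, is given without a test. The ETS factor Erg had 19, 19 and 18 reads in the controls and 25, 58 and 33 in Tex15-/-, with a log2 ratio of 1.04 and an adjusted p of 0.471.

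The controls held very few reads of several genes known from endothelium. Of the 67 genes, 11 had at most 3 reads in every control. The highest library was Tex15-/- library 2 for 9 of them and library 3 for Esm1 and F2rl3, which follows in part from choosing genes that were low in the controls. Clec14a and Gpihbp1 had 0 reads in all 3 controls and 34 and 28 reads in library 2. Cav1, the main protein of caveolae, had 1, 1 and 2 reads in the controls and 0, 61 and 5 in Tex15-/-. The ETS factor Fli1 had 2, 1 and 1 reads in the controls and 0, 46 and 8 in Tex15-/-. In these 4, library 1 stayed at 0 or 1 read, and in Angpt1 and Cldn5, also of the 11, it had 2 reads. Vwf, which encodes von Willebrand factor, showed none of this pattern, with 1640, 1465 and 1549 reads in the controls and 1678, 1343 and 1304 in Tex15-/-.

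**Figure D3:**
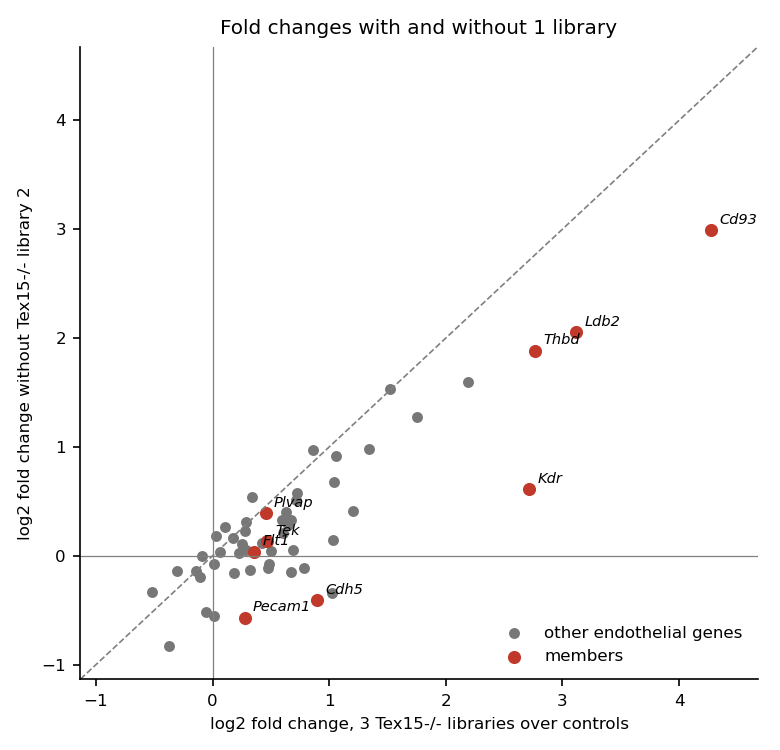
Log2 ratio of Tex15-/- over control from all 6 libraries (x axis) and without Tex15-/- library 2 (y axis), for the 9 members (red) and 45 other endothelial genes (grey) in the fit. Most points lie below the dashed line of equal values, Cdh5 and Pecam1 cross to negative values, and Cd93, Thbd and Ldb2, selected on their counts, go from 4.27, 2.76 and 3.12 to 2.99, 1.89 and 2.05.

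Markers of other testis cells moved in the same libraries. Relative to the control mean, the summed CPM of 8 interstitial and mesenchymal genes was 0.894, 24.1 and 5.56 times as high in Tex15-/- libraries 1, 2 and 3, and that of 7 foetal Leydig cell genes was 0.988, 15.3 and 4.72 times as high. The 8 Sertoli cell genes stood at 0.840, 8.27 and 5.23 times, the 8 pericyte and smooth muscle genes at 1.18, 4.31 and 1.96 times and the 8 macrophage genes at 1.12, 4.47 and 5.44 times. All 8 interstitial and mesenchymal and all 7 Leydig genes were highest in library 2, as were 6 Sertoli and 7 pericyte genes, against 1 macrophage gene. The Leydig hormone gene Insl3 had 0 reads in every control and 29 in library 2. The 6 endothelial markers stood at 0.970, 2.93 and 1.10 times, lower ratios than those of these lists in libraries 2 and 3. Ratios depend on the control level, and in CPM the order in library 2 differed. The endothelial sum rose from at most 83.2 CPM in the controls to 231.7 CPM there. This rise exceeded those of the Sertoli and macrophage sums, which reached 132.5 and 85.9 CPM. It was smaller than the rises of the interstitial, Leydig and pericyte sums. The 10 germ cell genes stood at 0.968, 0.998 and 1.00 times and the 5 platelet genes at 0.951, 0.843 and 0.950 times. The 7 erythroid genes stood at 0.813, 1.02 and 1.35 times. Alas2 and Slc4a1 made up most of the erythroid sum, and the globin gene Hba-a2 had 6, 5 and 5 reads in the controls and 0, 17 and 23 in Tex15-/-. The part of these other cell types in the values of the 10 genes was not tested.

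**Figure D4:**
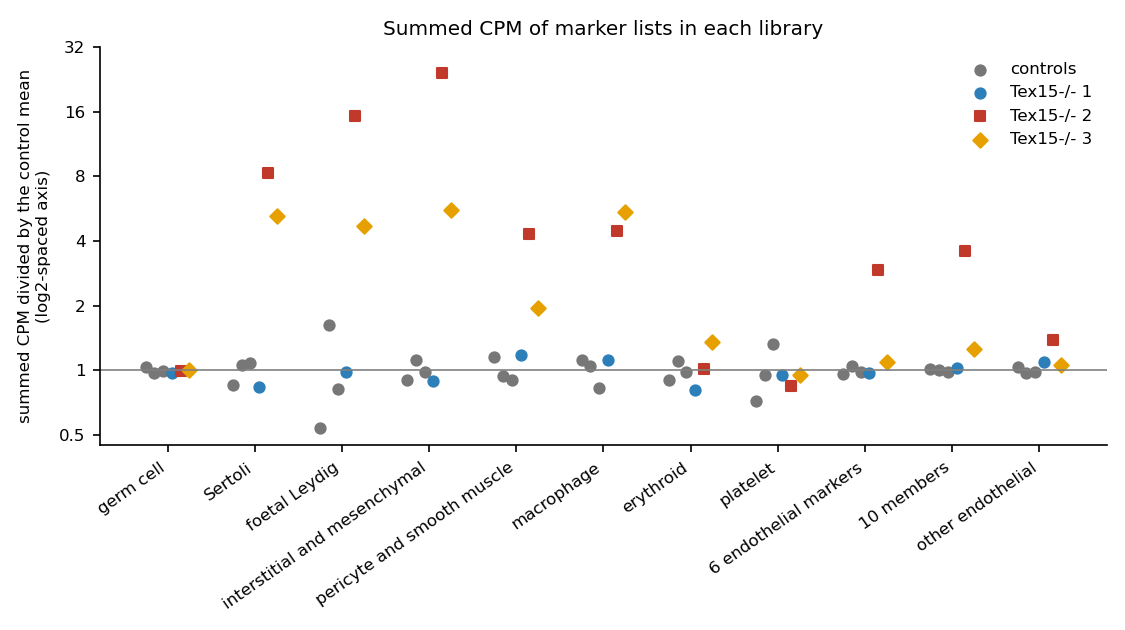
Summed CPM of each marker list in each library divided by the mean of the 3 controls (y axis, log2-spaced). Grey points are controls and the other shapes are Tex15-/- libraries 1, 2 and 3. Library 2 lies highest in the interstitial list at 24.1 times, the germ cell list stays near 1 in all libraries, and the 6 endothelial markers reach 2.93 times in library 2.

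The 10 genes whose log2 CPM across the 6 libraries was most like the summed endothelial level were sought among 19529 genes with a mean of at least 1 CPM. They were Frem1, Mcm6, Setd1b, Pnmal2, Gm9800, Zfp532, Arap1, Dlc1, Zfp592 and 2310022B05Rik, with Pearson's r from 0.989 to 0.995, and none of them was in a marker list. Frem1, an extracellular matrix gene, had 47, 49 and 55 reads in the controls and 43, 165 and 56 in Tex15-/-, so the likeness rested on library 2. Against the sum of the markers without the gene itself, r across the 6 libraries was 0.916 for Cdh5, 0.910 for Kdr, 0.896 for Flt1, 0.871 for Emcn, 0.831 for Pecam1, 0.828 for Tek and 0.498 for Plvap, and 0.849 for Ldb2, 0.820 for Thbd and 0.802 for Cd93. These values describe points that share library 2 and carry no test.

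In small RNA of whole testes, where cells were not sorted, miR-126a-3p gave an endothelial readout that the selection did not use. Reads with its exact sequence made up 23139, 20720 and 24098 RPM (reads per 1000000 miRNA reads) in control libraries 1, 2 and 3 and 14888, 15700 and 22908 RPM in Tex15-/- libraries. Library 3 of Tex15-/- lay within the control range and the others below it. The means were 22652 ± 1741 RPM and 17832 ± 4415 RPM (SD, n = 3 each), and the log2 difference of -0.37 had p = 0.2 in a two-sided exact permutation test, in which the smallest p possible was 0.1. By the deposited annotation, which also takes in reads that are not identical to this sequence, the level of the 3p arm was 41757 ± 5072 RPM in the controls and 34533 ± 5535 RPM in Tex15-/-. Counted in the same way, the 5p arm, miR-126a-5p, was far rarer, at 127.2 ± 13.5 RPM in the controls and 103.7 ± 29.1 RPM in Tex15-/-, with a log2 difference of -0.33 and p = 0.3 in the same exact permutation test. Egfl7, the gene around it, had 37, 40 and 32 reads in the control gonocyte libraries and 42, 105 and 31 in those of Tex15-/- (log2 ratio 0.69, adjusted p 0.612, and 0.06 without Tex15-/- library 2). The small RNA and gonocyte libraries are different samples, so their numbers are not matched.

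**Figure D5:**
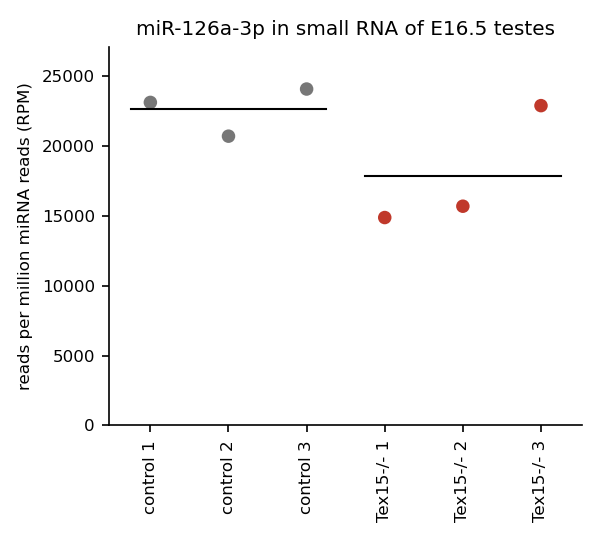
Level of miR-126a-3p in RPM of the miRNA reads (y axis, from 0) in the 6 small RNA libraries of E16.5 testes (x axis). Grey points are controls, red points are Tex15-/- libraries and bars are group means. Tex15-/- libraries 1 and 2 lie below all controls and library 3 among them.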

How the data were processed

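Per the study's methods, the authors aligned paired-end reads of rRNA-depleted gonocyte RNA to GRCm38 with HISAT2 and deposited raw read counts per Ensembl gene from htseq-count (HTSeq 0.11.1), without normalization. The strand setting was not stated, so overlapping genes are uncertain. Rows that name no gene held 61.3% to 67.3% of each table and were left out. For small RNA, the authors deposited trimmed, collapsed sequences with their read counts and an annotation score.

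The 10 members and all marker lists were chosen with earlier results of these data known. Gene symbols, positions and exon lengths came from GENCODE vM21 (54723 of 54838 identifiers matched). The counts were fitted with edgeR 4.0.16 (R 4.3.3; TMM, filterByExpr, quasi-likelihood test of 3 against 3 libraries), with Benjamini-Hochberg adjustment over all genes and a threshold of 0.01. DESeq2 1.42.0, other filters, scalings and omissions of each library were alternatives. The fit was tested on simulated counts, in which no library stood apart. Likeness used log2(CPM + 0.5). Named genes were the members, the highest gene per kilobase in each of 8 endothelial roles and the 10 genes most like the marker sum. The coding genes within 500 kb of Cd93 were named, and of those too low for the fit reads were given only for Sstr4 and Cst9. Other genes were named after their values were seen. Precision is limited by 3 libraries per genotype and, for low genes, by counting error. miR-126a-3p was counted by exact sequence and tested by exact permutation (numpy 2.4.6). P20 libraries and repeat counts were not used here.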

Additional observations from a re-analysis of the deposited data

How the results depend on the processing

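The number of genes past the threshold, 0 in edgeR with the filter, was 488 without a filter on low counts (445 higher, 43 lower), 1 where a minimum of 10 counts was asked of all libraries, 2 under the newer estimate in edgeR, 14 in DESeq2 (10 higher, 4 lower) and 3 at an adjusted p under 0.05, and 0 with total counts and with size factors. It ranged from 0 to 388 when each library was left out. The count was 388 without Tex15-/- library 1 (296 higher, 92 lower) and 5 without Tex15-/- library 2. The number of other endothelial genes past it, 0, was 6 of 67 without a filter, all higher, beside 488 of 42446 among all genes tested. It ranged from 0 to 2 when each library was left out. The 2 of 49 without Tex15-/- library 1, beside 388 of 17520 among all genes tested, were Nrp1 and Tgfbr2. In that fit Nrp1 passed the filter only through Tex15-/- libraries, so nothing is read from its call. The number was 0 under the other alternatives. The cause of these differences was not tested.

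Cdh5 and Pecam1 turned to log2 ratios of -0.41 and -0.57 without Tex15-/- library 2, and over the left-out libraries they ranged from -0.41 to 1.29 and from -0.57 to 0.58. Kdr passed the threshold without a filter (log2 ratio 2.76, adjusted p 2.2e-11 in edgeR) and without Tex15-/- library 1 (3.28), and Cdh5 without a filter (0.94, adjusted p 0.000434). The fit without a filter called 488 of 42446 genes tested, and that without Tex15-/- library 1 called 388 of 17520. Kdr was not tested with at least 10 counts in every library, and Emcn passed the filter in 4 of the left-out fits. With the fit without a filter these gave Emcn log2 ratios from 1.47 to 2.13 in edgeR. In the left-out fits Emcn passed the filter only through Tex15-/- libraries, so no test is given. Flt1, Tek and Plvap kept a positive log2 ratio and stayed short of the threshold under all alternatives, from 0.04 to 0.53, 0.14 to 0.70 and 0.33 to 0.58. The median over the lineage markers tested, 0.46, ranged from 0.09 to 0.70, and that over Cd93, Thbd and Ldb2, 3.12, from 2.05 to 3.61. The ratio of the 6-marker sum, 1.67, ranged from 1.03 (without Tex15-/- library 2) to 2.02 over the left-out libraries. Over the other alternatives, which included leaving out each marker in turn, it ranged from 1.51 to 1.96. The value of 1.96 came from the sum of all 10 members, which includes the 3 genes selected on their counts. The next highest was 1.87, with Flt1 left out. The log2 difference of miR-126a-3p, -0.37, ranged from -0.56 to -0.25.

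Replicate numbers are shared by the labels only. Deviations of same-numbered libraries from their group means correlated at -0.143, -0.0434 and -0.00753, so the numbers were not taken to pair the libraries. A fit with the replicate block called 0 genes and 0 other endothelial genes, and miR-126a-3p had p = 0.25 in the paired exact permutation test, the smallest it can give. Depth limited Emcn, Cd93 and Ldb2 most, whose control counts were from 2 to 8 reads.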
